A study of Danio rerio with 14 samples.

Results

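The transcripts described here encode the zebrafish embryonic globins hbae1.1, an alpha chain, and hbbe2, a beta chain, measured in the eyes of larvae exposed to tetrabromobisphenol A (TBBPA). All probes with deposited values whose gene symbol, current or older, is hbae1.1 or hbbe2 were taken. They gave 2 of 8809 named genes and 5 of the 17950 probes, 3 for hbae1.1 and 2 for hbbe2. The 6 probes of other symbols beginning hba or hbb served as comparison, namely 1 for hbae3, 2 for hbbe1.1, 2 for hbbe3 and 1 for the adult beta chain hbba2. Of 17 globin genes of this family in the reference gene table, 6 thus had a probe with deposited values. The authors dropped spots above background on no array, so array probes of other globin genes may be missing from these values.

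Hemoglobin is built from pairs of alpha and beta globin chains, each holding a heme group with iron, and carries oxygen in red blood cells. Zebrafish express embryonic and larval globin genes first, in the primitive red cells that circulate in the embryo, and switch to adult globin genes as definitive red cells take over during larval and juvenile growth. Red cells reach the eye through the hyaloid vessels around the lens and the choroidal vessels behind the retina. The genes lie in clusters of mixed alpha and beta genes: in the reference gene table for the GRCz12tu assembly, hbae1.1 lies directly between hbbe1.1 and hbbe1.2, and hbbe2 lies beside hbae5 in another cluster that also holds hbbe3. The genes hbae1.1, hbae1.2 and hbae1.3 are near-identical copies, so the hbae1.1 probes may also have detected the other copies, and which copy gave the signal is uncertain. The same holds for hbbe1.1 with hbbe1.2 and hbbe1.3.

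Wild-type AB eggs were placed in 200 µg/L TBBPA, used as a flame retardant, or in control medium (0 µg/L TBBPA, with the solvent dimethyl sulfoxide per the methods) and stayed there until 5 days post fertilization (dpf). Eyes were dissected at 5 dpf, or at 8 dpf after 3 further days of all larvae in clean water, so the 4 groups were control at 5 dpf, TBBPA at 5 dpf, control at 8 dpf and TBBPA at 8 dpf. Each group held 3 RNA samples, each from the pooled eyes of 10 larvae of a plate. On 14 two-colour arrays, each carrying 2 of the 12 samples, 6 set TBBPA against control at 5 dpf, 4 did so at 8 dpf, and 4 linked the ages. Replicate 1 of both 5 dpf groups was used on 4 arrays and all other samples on 2. All 4 arrays that linked the ages carried replicate 1 of a 5 dpf group. Control eyes of both ages met only on the array of control replicate 1 at 5 dpf with control replicate 2 at 8 dpf.

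The values were log2 ratios between the samples on an array, so no absolute level, and no ranking of one globin against another by abundance, could be read from them. The level of a probe in a sample below is its log2 value relative to the mean of the 12 samples, estimated from all arrays together. Changes between groups come from limma, a linear model fitted to every probe, with the standard error (SE) and a p after Benjamini-Hochberg adjustment across the 17950 probes. A probe rose or fell where the adjusted p was under 0.05, and the study's own threshold of an absolute log2 change over 0.75 is stated beside it. SE and p take arrays, not plates, as replicates. Array medians lay between -0.019 and 0.004, the SD of the ratios ranged from 0.226 to 0.601, and the number of arrays limits the precision. Eye identity could not be checked by marker abundance either, although 23 of 27 listed photoreceptor genes and 13 of 18 lens genes had a named probe.

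Among the alpha chain probes, hbae1.1 probe 1 showed the largest change with TBBPA. At 5 dpf its log2 levels were 0.84, 0.24 and 0.47 in the control eyes (replicates 1, 2 and 3) and 1.87, 1.52 and 1.58 in the TBBPA eyes. At 8 dpf they were -1.38, -1.63 and -0.72 in control eyes and -1.02, -1.26 and -0.51 in TBBPA eyes. The TBBPA eyes at 5 dpf thus lay above all other samples, the control eyes at 5 dpf came next, and the 8 dpf groups lay lowest and overlapped each other. Replicate 3 was the highest sample of both 8 dpf groups.

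The hbae1.1 probe 3, designed on the same transcript record, gave the same order. Its log2 levels in control eyes at 5 dpf were 1.03, 0.47 and 0.72, and in TBBPA eyes 1.74, 1.35 and 1.45. At 8 dpf they were -1.43, -1.68 and -0.62 in control eyes and -1.07, -1.44 and -0.53 in TBBPA eyes. Again the 5 dpf groups did not overlap and the 8 dpf groups did.

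The hbae1.1 probe 2, which the array's file ties to an expressed sequence tag and which was named here through the older symbol hbae1, moved over a much narrower range. Its log2 levels at 5 dpf were -0.07, 0.11 and -0.09 in control eyes and 0.43, 0.33 and 0.15 in TBBPA eyes. At 8 dpf they were -0.10, -0.18 and -0.17 in control eyes and -0.14, -0.19 and -0.09 in TBBPA eyes. The order of the groups at 5 dpf was the same, but the step to 8 dpf was small.

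For the beta chain, hbbe2 probe 1 had log2 levels of 0.76, 0.53 and 0.41 in control eyes and 1.41, 1.35 and 1.03 in TBBPA eyes at 5 dpf. At 8 dpf the levels were -1.08, -1.22 and -0.63 in control eyes and -0.91, -1.11 and -0.53 in TBBPA eyes. The hbbe2 probe 2 had 0.49, 0.52 and 0.29 in control eyes and 1.36, 1.15 and 0.89 in TBBPA eyes at 5 dpf. At 8 dpf it had -1.01, -1.23 and -0.48 in control eyes and -0.86, -0.86 and -0.25 in TBBPA eyes. Both beta chain probes repeated the order seen for hbae1.1 probes 1 and 3, with the highest values in TBBPA eyes at 5 dpf and overlapping groups at 8 dpf.

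**Figure D1:**
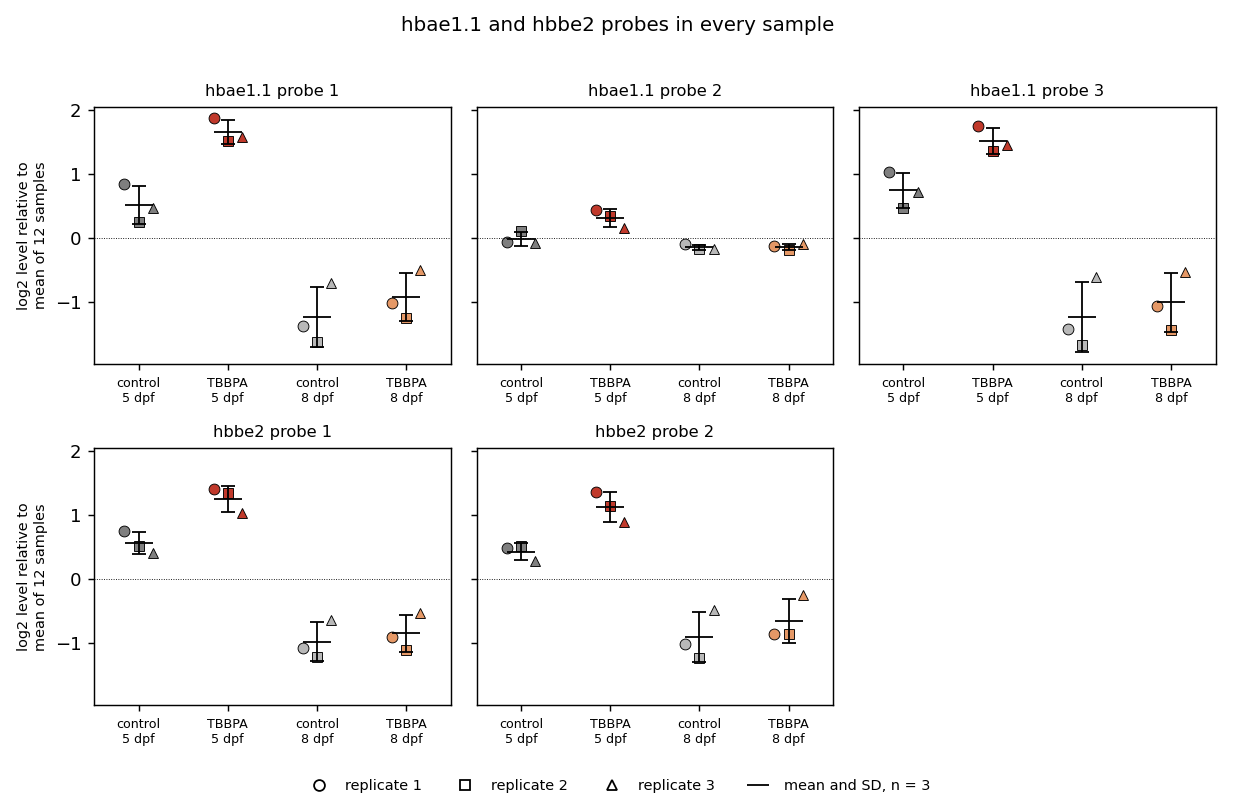
Log2 level of each hbae1.1 and hbbe2 probe in the 12 eye samples, relative to the mean of the 12 samples; each symbol is 1 sample and the bars give the mean and SD of 3 samples. In all 5 probes the 3 TBBPA samples at 5 dpf lie above the 3 control samples, and the 8 dpf groups overlap.

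The comparison of TBBPA with control at 5 dpf asks how exposure changed the eye transcripts at the end of exposure. All 5 probes of hbae1.1 and hbbe2 rose, while 4.23% of all probes did. The 5 probes stand for only 2 genes, chosen with earlier results of these data known, so this share is no test of the set. hbae1.1 probe 1 rose by 1.05 ± 0.15 (SE) on the log2 scale, or 2.08-fold (95% interval 1.66 to 2.60, adjusted p = 0.00129, limma), and ranked 12 from the top of 17950 probes. hbae1.1 probe 3 rose by 0.68 ± 0.16 (adjusted p = 0.0195) and hbae1.1 probe 2 by 0.34 ± 0.05 (adjusted p = 0.00128). hbbe2 probe 1 rose by 0.64 ± 0.10, or 1.55-fold (adjusted p = 0.00227), and hbbe2 probe 2 by 0.66 ± 0.10, or 1.58-fold (adjusted p = 0.00172). Of the 5, hbae1.1 probe 1 alone also passed the study's fold threshold. The 95% interval of probe 2 (0.24 to 0.44) lay below that of probe 1 (0.73 to 1.38), so probes assigned to hbae1.1 did not give the same size of change.

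The TBBPA and control levels at 5 dpf did not overlap for any of the 5 probes, with TBBPA above, as for 8.54% of all probes. An exact permutation test over the samples (two-sided, 3 against 3) gave p = 0.1 for each of the 5, which is the smallest p this design allows. Since eyes are a mixed tissue, more red cells per eye and more globin RNA per cell cannot be told apart here. Leaving out control replicate 1 of 5 dpf removes 4 of the 14 arrays, against 2 for most other samples, so precision falls too. The changes of the 5 probes were then 1.35, 0.33, 0.98, 0.83 and 0.79, in the order of the plot of levels. Of these, 2 of 5 passed the test, hbae1.1 probe 1 and hbbe2 probe 1, with 49 of all probes called instead of 1270. The call of hbae1.1 probe 3 was lost without any single one of the 6 samples of 5 dpf.

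The 6 arrays that carried both TBBPA and control eyes of 5 dpf can also be read without the model. TBBPA exceeded control on 6 of 6 arrays for all 5 probes. These arrays share samples and also entered the model, so they are not 6 independent comparisons. The share of all probes with 6 of 6 was not counted, so this count has no background to be read against. Among the comparison probes, both of hbbe1.1 and hbbe3 probe 1 were also higher on 6 of 6. hbae3 was higher on 5, hbba2 on 3 and hbbe3 probe 2 on 2. For hbae1.1 probe 1 the array values ran from 0.57 to 1.82 (median 1.15), for probe 2 from 0.18 to 0.58 (median 0.28), and for probe 3 from 0.30 to 1.25 (median 0.78). For hbbe2 probe 1 they ran from 0.29 to 1.02 (median 0.71) and for probe 2 from 0.33 to 1.01 (median 0.66). The lowest value of hbae1.1 probe 1 and of both hbbe2 probes came from the array of TBBPA replicate 3 with control replicate 1. The direction did not depend on the dye: hbae1.1 probe 1 averaged 0.96 with TBBPA in Cy5 and 1.33 with TBBPA in Cy3, and hbbe2 probe 1 averaged 0.71 and 0.69.

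**Figure D2:**
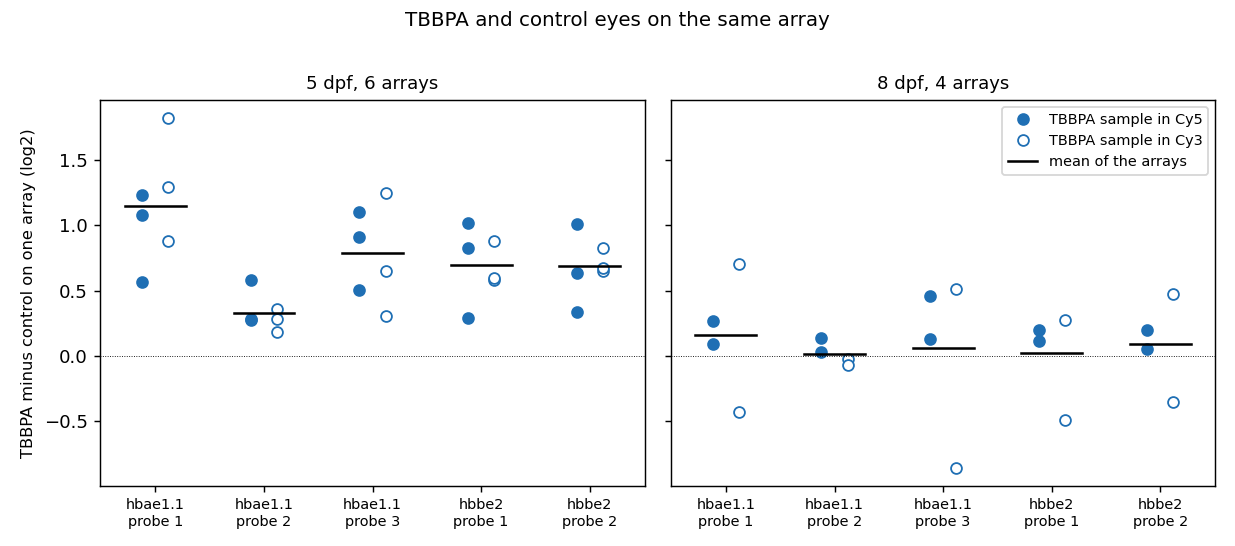
Log2 difference TBBPA minus control on each array that carried both, at 5 dpf (6 arrays) and 8 dpf (4 arrays), for the 5 hbae1.1 and hbbe2 probes; filled points have TBBPA in Cy5, open points in Cy3, and the line is the mean. All 5 dpf points lie above 0, and the 8 dpf points lie on both sides of it.

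At 8 dpf, after 3 days in clean water, 0 of the 5 probes changed between TBBPA and control in limma, against 1.39% of all probes. An unadjusted p under 0.05 was reached by 0 of 5 and by 11.7% of all probes. hbae1.1 probe 1 differed by 0.25 ± 0.18 (95% interval -0.13 to 0.64), probe 2 by 0.01 ± 0.06 (interval -0.11 to 0.14) and probe 3 by 0.16 ± 0.19 (interval -0.25 to 0.57). hbbe2 probe 1 differed by 0.09 ± 0.12 (interval -0.17 to 0.35) and probe 2 by 0.19 ± 0.12 (interval -0.06 to 0.44). On the 4 arrays that set TBBPA against control at 8 dpf, hbae1.1 probe 1, hbae1.1 probe 3 and both hbbe2 probes were higher in TBBPA on 3. The array that went the other way carried TBBPA replicate 2 and control replicate 3, the latter the highest control sample of that age, with values of -0.42 for hbae1.1 probe 1, -0.86 for hbae1.1 probe 3, -0.49 for hbbe2 probe 1 and -0.35 for hbbe2 probe 2.

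Whether the TBBPA effect itself differed between the ages was tested as the effect at 8 dpf minus that at 5 dpf. The difference was -0.80 ± 0.24 for hbae1.1 probe 1 (adjusted p = 0.188), -0.33 ± 0.08 for probe 2 (adjusted p = 0.115) and -0.52 ± 0.25 for probe 3 (adjusted p = 0.439). It was -0.55 ± 0.16 for hbbe2 probe 1 (adjusted p = 0.183) and -0.48 ± 0.15 for probe 2 (adjusted p = 0.234). All 5 values were negative, and 0 of 5 passed the adjusted threshold in limma, as against 0.0613% of all probes. An unadjusted p under 0.05 was reached by 4 of 5 and by 11.5% of all probes. A loss of the effect in clean water was therefore not established by this test.

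For 4 of the 5 probes the change with age in control eyes was larger in size than that with TBBPA at 5 dpf. From 5 to 8 dpf in control eyes, 4 of the 5 probes fell, against 18.2% of all probes. hbae1.1 probe 1 fell by 2.15 on the log2 scale (SE 0.23, 4.43-fold, adjusted p = 1.05e-05) and probe 3 fell by 2.39 (SE 0.25, adjusted p = 6.49e-06). hbbe2 probe 1 fell by 1.79 (SE 0.16, 3.46-fold, adjusted p = 1.39e-06) and probe 2 fell by 1.53 (SE 0.15, adjusted p = 4.94e-06). hbae1.1 probe 2 gave -0.16 ± 0.08 (adjusted p = 0.122). All 4 probes that fell passed the study's fold threshold. The levels of all 5 probes in control eyes at 8 dpf lay below those at 5 dpf without overlap, as for 19.7% of all probes. The ages were joined only through replicate 1 of the control and TBBPA groups of 5 dpf. The SE, p and lack of overlap between ages thus do not come from a comparison repeated on each plate, here or in TBBPA eyes.

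In TBBPA eyes, where the step from 5 to 8 dpf combines growth with the end of exposure, all 5 probes fell, against 22.4% of all probes. The changes were -2.95 ± 0.23 for hbae1.1 probe 1 (7.72-fold), -0.48 ± 0.08 for probe 2 and -2.91 ± 0.25 for probe 3. They were -2.34 ± 0.16 for hbbe2 probe 1 (5.07-fold), and hbbe2 probe 2 was 4.01-fold lower (95% interval 3.19 to 5.03). The highest adjusted p of the 5 was 0.000188, for hbae1.1 probe 2, the only one not past the study's fold threshold. The difference between these falls and those of control eyes is the same quantity as the difference of TBBPA effects given above.

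The other globin probes differed among themselves. The embryonic beta chain hbbe1.1, the neighbour of hbae1.1, resembled the members: at 5 dpf probe 1 had log2 levels of 1.21, 0.80 and 0.83 in control eyes and 1.80, 1.45 and 1.52 in TBBPA eyes. For hbbe1.1 probe 2 the levels at 5 dpf were 0.79, 0.42 and 0.71 in control eyes and 1.50, 1.45 and 1.39 in TBBPA eyes. Both probes rose with TBBPA at 5 dpf, by 0.58 ± 0.14 (adjusted p = 0.0183) and 0.76 ± 0.12 (adjusted p = 0.00227). Like hbae1.1 probe 1, hbbe1.1 probe 2 also passed the study's fold threshold, and hbbe1.1 probe 1 did not. The call of hbbe1.1 probe 1 was lost without any single control sample of 5 dpf, TBBPA replicate 1 or 2 of 5 dpf, or control replicate 1 of 8 dpf (0.47 to 0.83, adjusted p up to 0.173). That of hbbe1.1 probe 2 was lost without control replicate 1 of 5 dpf (0.89, adjusted p = 0.0529). Both hbbe1.1 probes also fell with age in control eyes, with log2 changes of -2.53 and -1.79, both past the fold threshold. At 8 dpf hbbe1.1 probe 2 gave -0.31 ± 0.15 (adjusted p = 0.442), and its difference of effects was -1.07 ± 0.19 (adjusted p = 0.0634).

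The alpha chain hbae3 shared the fall with age but did not pass the test for TBBPA. Its log2 levels at 5 dpf were 1.03, 0.77 and 0.88 in control eyes and 1.38, 1.01 and 0.87 in TBBPA eyes, which overlap. The age change in control eyes was -2.17 ± 0.24 (adjusted p = 1.27e-05), past the study's fold threshold. The TBBPA effect at 5 dpf was 0.13 ± 0.16 (95% interval -0.21 to 0.47, adjusted p = 0.702). The interval reaches 0.47, so a rise of hbae3 of that size is not excluded by these arrays.

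The 2 hbbe3 probes and the hbba2 probe moved over a narrow range. Over the 12 samples, hbbe3 probe 1 lay between -0.18 and 0.14, hbbe3 probe 2 between -0.15 and 0.20, and hbba2 between -0.15 and 0.15. At 5 dpf the TBBPA effect was 0.13 ± 0.05 for hbbe3 probe 1 (adjusted p = 0.119), -0.00 ± 0.05 for hbbe3 probe 2 and -0.05 ± 0.07 for hbba2. Though not past the test, hbbe3 probe 1 shared 2 traits with the members at 5 dpf. Its TBBPA levels all lay above its control levels, and TBBPA was higher on 6 of 6 arrays (unadjusted p = 0.0162, limma). Their age changes in control eyes were 0.04, 0.09 and -0.03, with the lowest adjusted p at 0.364. hbba2 encodes an adult beta chain. Since no intensities were used, near-zero ratios of a transcript with little or no signal and of a steady transcript cannot be told apart.

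**Figure D3:**
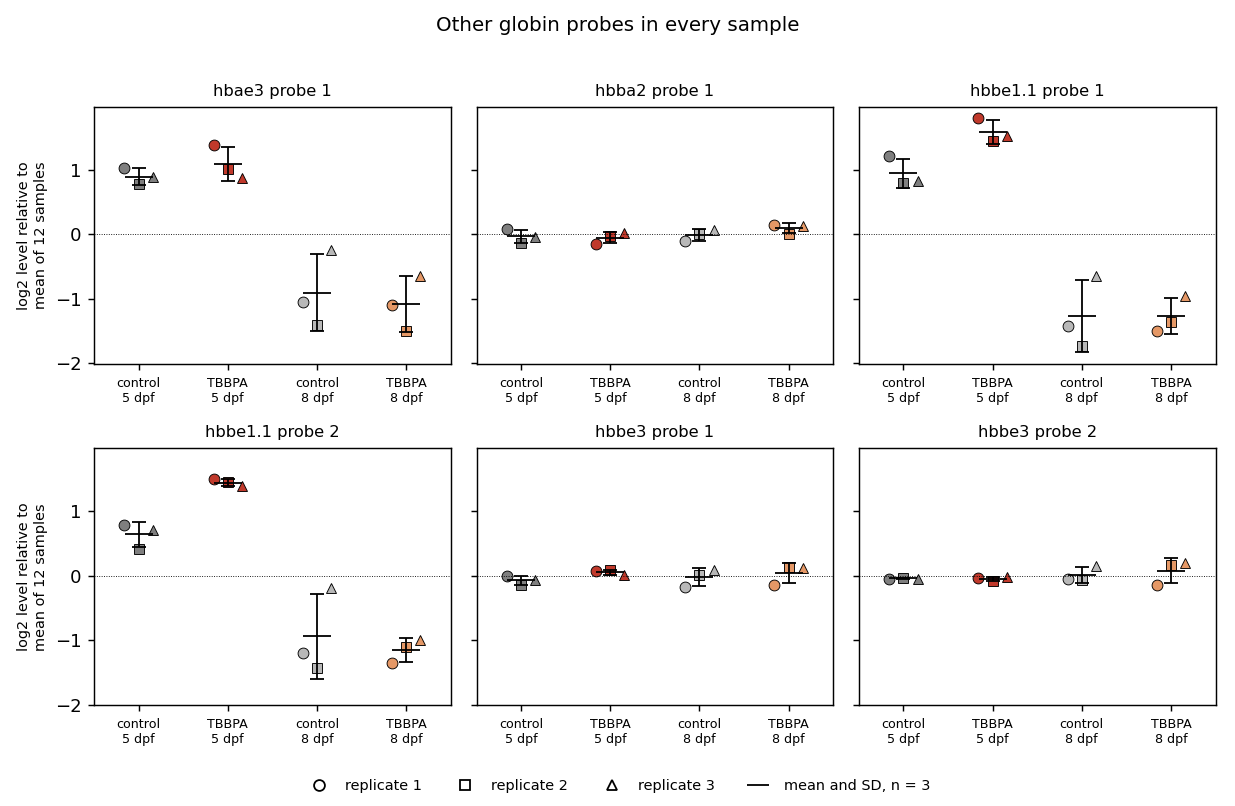
Log2 level of the 6 comparison probes (hbae3, hbba2, hbbe1.1 and hbbe3) in the 12 eye samples, relative to the mean of the 12 samples; symbols are samples and bars the mean and SD of 3. hbae3 and hbbe1.1 are lower at 8 than at 5 dpf, while hbba2 and hbbe3 stay within -0.18 to 0.20.

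**Figure D4:**
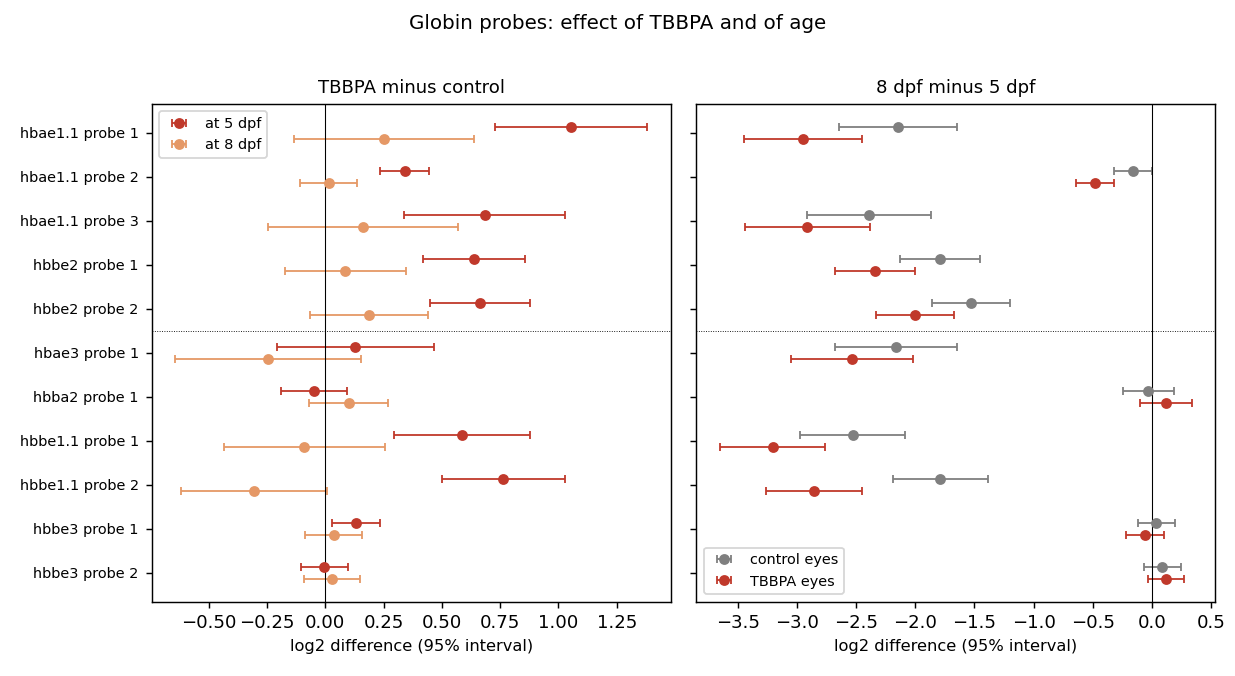
Log2 differences with 95% intervals from limma for all 11 globin probes: TBBPA minus control at each age (left) and 8 minus 5 dpf in control and TBBPA eyes (right). The TBBPA effect of hbae1.1 probe 1 is 1.05 at 5 dpf and 0.25 at 8 dpf, and the age changes of hbba2 and the hbbe3 probes lie near 0.

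Averaged per gene, hbae1.1 rose by 0.69 ± 0.10 and hbbe2 by 0.65 ± 0.10 on the log2 scale with TBBPA at 5 dpf (adjusted p = 0.00107 and 0.0011, limma over 8809 genes). Alpha and beta chain were compared within each sample, as hbae1.1 minus hbbe2. This difference was -0.09 ± 0.14 (SD, n = 3) in control eyes and -0.04 ± 0.14 in TBBPA eyes at 5 dpf, a step of 0.05 (exact permutation p = 0.7, two-sided). With the narrow-ranging hbae1.1 probe 2 left out, the difference was 0.13 ± 0.26 in control eyes and 0.39 ± 0.18 in TBBPA eyes, a step of 0.26 (exact permutation p = 0.3). The smallest p this test allows with 3 samples per group is 0.1, so it could not establish an unequal change of the 2 chains. From 5 to 8 dpf the difference with all 3 hbae1.1 probes changed by 0.15 in control and 0.10 in TBBPA eyes (exact permutation p = 0.1 and 0.4). With hbae1.1 probe 2 left out it changed by -0.43 and -0.61 (exact permutation p = 0.2 and 0.1). The direction of the age change thus depended on probe 2.

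Among the 6 samples of 8 dpf, hbae1.1 and hbbe2 varied together, with Pearson r = 0.990 (exact permutation p = 0.00139, adjusted p = 0.00278) and Spearman rho = 1.000 (exact permutation p = 0.00278, adjusted p = 0.00556), adjusted over the 2 ages. Without the samples farthest from the median, both of them replicate 3, r was 0.966 over 4 samples. The 6 levels were estimated from arrays that share samples, and both genes from the same arrays, so the levels are not independent. The p values therefore do not measure how the 2 genes vary together among plates. No r is given for 5 dpf, where the 2 groups lay apart.

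**Figure D5:**
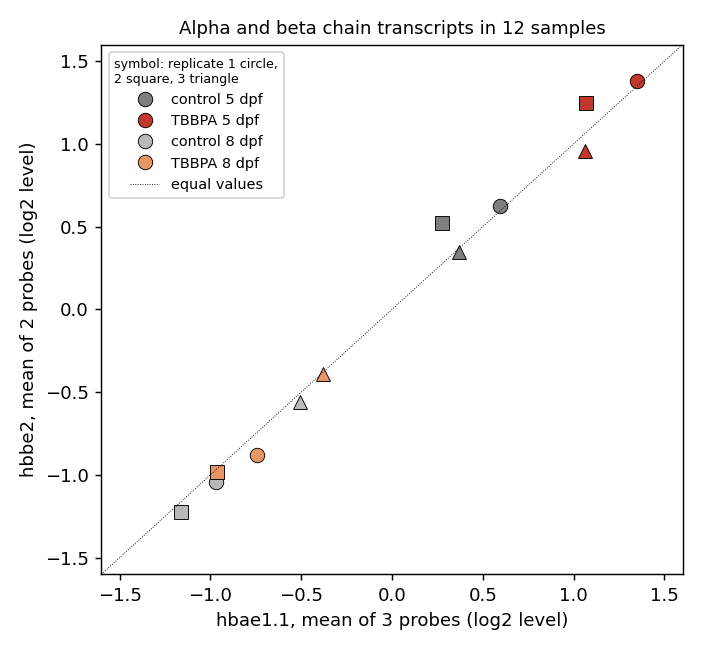
Log2 level of hbbe2 (mean of 2 probes) against hbae1.1 (mean of 3 probes) in the 12 samples; each symbol is 1 sample and the dotted line marks equal values. The samples lie near the line. The lowest is replicate 2 of the control eyes at 8 dpf (hbae1.1 -1.16, hbbe2 -1.23). The highest is replicate 1 of the TBBPA eyes at 5 dpf (hbae1.1 1.35, hbbe2 1.38). The mean of hbae1.1 includes its probe 2, which moved over a narrower range than its probes 1 and 3.

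Over all 12 samples the globin most like hbae1.1 was hbbe2 (r = 0.994), followed by hbbe1.1 (0.982) and hbae3 (0.957), while hbbe3 (-0.063) and hbba2 (-0.346) were unlike it. Outside the globins, the 5 genes most like hbae1.1 were ptrhd1, hapln1a, krtcap2 and lum, each with r = 0.981, and fzd10 with r = 0.978. hapln1a encodes a link protein of hyaluronan matrix, lum encodes lumican, a proteoglycan of the cornea, and fzd10 encodes a Wnt receptor. For hbbe2 they were acadl and rpz5 (both 0.983), esco2 (0.979), plod3 (0.977) and lum (0.976), where acadl encodes a mitochondrial acyl-CoA dehydrogenase, esco2 a cohesin acetyltransferase and plod3 a lysyl hydroxylase of collagen. These r describe likeness of pattern alone, since all 12 samples share the steps of age and treatment.

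Other genes of red cells were described from lists, counted per gene, with 5.98% of all genes rising and 3.51% falling with TBBPA at 5 dpf. Of 25 genes of heme synthesis and iron import, 9 had a named probe and 1 rose: alas1, the housekeeping form of the first enzyme of heme synthesis, by 0.28 ± 0.07 (adjusted p = 0.0197). glrx5, which serves iron-sulfur cluster assembly, gave -0.13 and uros, an enzyme of the porphyrin ring, -0.06, neither past the test. The list's median was -0.01 and that of all genes 0.01. Of 22 genes of the red cell membrane and cytoplasm, 10 were measured and 1 rose, hbegfa, by 0.30 ± 0.07 (adjusted p = 0.0167). That gene encodes a heparin-binding growth factor rather than a structural protein of the red cell membrane. The membrane anchor ank1a gave -0.23 (adjusted p = 0.0516), and the list's median was -0.06. With a dye effect in the model, 1 gene of this list rose and 1 fell. The calls of alas1 and hbegfa were both lost without control replicate 1 of 5 dpf.

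Of 24 erythroid transcription factors, 10 were measured and 0 of them rose or fell in limma at 5 dpf, with or without a dye effect. Their median was 0.02, and 2 of 10 had an unadjusted p under 0.05, near the 24% of all genes. tal1, a regulator of blood and endothelial fate, gave 0.33 ± 0.14 (adjusted p = 0.162) and gata2a, a factor of blood progenitors, 0.16 (adjusted p = 0.127). The red cell enzyme alas2, the factors gata1a and klf1 and the anion exchanger slc4a1a had no named probe among those analysed. Of the other globin family, myoglobin mb, cytoglobin cygb1 and neuroglobin ngb gave -0.16, -0.09 and 0.02, with 0 of 3 past the test and 0 with an unadjusted p under 0.05. At 8 dpf, 0 of the 32 measured genes of these 4 lists differed between TBBPA and control in limma, where 1.59% of all genes did. With a dye effect in the model 1 did, and 3 of 32 had an unadjusted p under 0.05, near the 11.8% of all genes.

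With age in control eyes, 14.4% of all genes rose and 22.9% fell. Of the red cell membrane and cytoplasm list 3 of 10 fell: prdx2, a peroxiredoxin abundant in red cells (-0.89, adjusted p = 0.000266), cahz, a red cell carbonic anhydrase (-0.43, adjusted p = 0.000513), and blvrb, a biliverdin reductase (-0.40, adjusted p = 0.00933). Its other genes did not pass: rhd (0.27), hbegfa (0.23), nt5c3a (0.13), dmtn (0.02), rhag (0.00), ank1a (-0.01) and aqp1a.1 (-0.23). The list's median was -0.0035 and that of all genes -0.0091. Of heme synthesis and iron import 2 of 9 fell, glrx5 (-0.41) and hmbsb (-0.19). Of the erythroid factors 3 of 10 fell, tal1 (-0.89), gata2a (-0.47) and myb (-0.23), and 3 rose, foxo3b (0.85), mafk (0.31) and klf6a (0.27). The shares that fell, 2 of 9 and 3 of 10, are near the share of all genes, while 4 of the 5 embryonic globin genes fell, hbbe3 being the exception. Markers of other cells shifted with age in control eyes too: 12 of 12 pancreas genes, 16 of 23 photoreceptor genes, 12 of 24 skin genes and 11 of 22 muscle genes fell, and 8 of 13 lens genes rose. Of 14 endothelial genes 5 fell and 4 rose. Among the control samples, the list's mean level lay between -0.00 and 0.04 at 5 dpf and between -0.11 and 0.00 at 8 dpf. The part of these other cells in the fall of the globins was not tested. Without control replicate 1 of 5 dpf, 732 of all genes fell and 280 rose, in place of 2016 and 1265. Of the 5 embryonic globin genes 4 still fell. In the red cell membrane list 2 fell, in heme synthesis 0 and among the erythroid factors 0, and 1 erythroid factor rose. Of the other lists, 10 of 12 pancreas, 10 of 23 photoreceptor, 10 of 22 muscle and 8 of 24 skin genes still fell. Of 11 liver and plasma genes, 7 fell with all samples and 1 without this one.

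Of 19 measured genes of the hypoxia response, 3 fell with TBBPA at 5 dpf, namely pgk1 (-0.33) and ldha (-0.26), both glycolytic enzymes, and bnip3lb (-0.15), a mitophagy receptor. Of all genes 3.51% fell and 5.98% rose. An unadjusted p under 0.05 (limma) was reached by 5 of the 19, near the 24% of all genes. Of 10 measured genes that clear or store hemoglobin iron and heme, the ferritin fthl31 rose by 0.32 and the plasma copper oxidase cp fell by 0.39 on the log2 scale. The heme oxygenases hmox1a (0.12) and hmox1b (-0.09) did not pass. Without control replicate 1 of 5 dpf, 0 genes of either list passed.

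Markers of other cells also moved with TBBPA at 5 dpf, where 5.98% of all genes rose and 3.51% fell. Measured were 6 of 24 listed leukocyte genes, 14 of 29 endothelial genes and 2 of 12 thrombocyte genes. Of 6 measured leukocyte genes, 4 rose: nccrp1 (0.50), lcp1 (0.31), coro1a (0.25) and apoeb (0.24), and the list's mean level was -0.16 to -0.05 in control and 0.02 to 0.20 in TBBPA eyes. Of 14 measured endothelial genes, 2 rose, cldn5b and ramp2 (both 0.28), with a mean level of -0.00 to 0.04 in control and 0.04 to 0.14 in TBBPA eyes. The endothelial receptor kdrl gave 0.05 and the junction gene cdh5 -0.08. An unadjusted p under 0.05 (limma) was reached by 4 of 14 endothelial genes, near the 24% of all genes. Of the 2 measured thrombocyte genes, f5 (-0.01) and vwf (0.00), 0 passed, also without adjustment. The part of blood content and vessel content in the globin result was not tested.

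Markers of the eye's own tissue and of tissue outside it moved as well, with the same 5.98% of all genes rising and 3.51% falling. Of 23 measured photoreceptor genes, 5 rose and 7 fell, among them the red cone opsin opn1lw2 (1.02) and the cone phosphodiesterase pde6c (-0.83), and the list's median was 0.04. 15 of 24 measured genes of skin and cornea epithelium, 8 of 13 of lens and 7 of 22 of skeletal muscle rose, with medians of 0.46, 0.39 and 0.22. All 12 measured genes of exocrine pancreas and 6 of 11 of liver and plasma fell, with medians of -1.15 and -0.51. The mean level of the skin list was 0.02 to 0.42 in control and 0.54 to 0.69 in TBBPA eyes, and that of the muscle list -0.02 to 0.48 and 0.39 to 0.53. The pancreas list ran from 0.73 to 1.91 in control and from -0.25 to 0.49 in TBBPA eyes, with control replicate 1 highest, and the liver list from -0.01 to 0.96 and from -0.24 to 0.03. The part of these tissues in the globin result was not tested. Without control replicate 1 of 5 dpf, 3 of 5 embryonic globin genes still rose in the test per gene, while over all genes 32 rose and 22 fell in place of 527 and 309. Of the lists of other cells, photoreceptors and skin then had 2 risen genes each and pancreas had 2 fallen genes, and leukocytes, thrombocytes, endothelium, lens, muscle, and liver and plasma had 0 in either direction.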

How the data were processed

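Per the methods, the authors read the spots with GenePix, dropped those not above local background on any array, applied normal-exponential background correction and loess within arrays, and used limma 3.34.4. The deposited values are log2 ratios, Cy5 over Cy3, for 17950 probes on 14 arrays. The table states neither log base nor direction, which were taken from the methods and dye labels. Reversing the sign of 1 array at a time always increased the residual sum of squares, to between 1.02 and 1.88 times its original value. No intensities, slides or scan dates were used, so dim probes could not be filtered nor such batches examined.

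The ratios were fitted as deposited with limma 3.58.1 in R 4.3.3, with 1 coefficient per group, Cy5 positive and Cy3 negative, and arrays taken as independent (11 residual and 3.61 prior degrees of freedom, median residual SD 0.19). Sample levels came from a least squares fit of the 12 samples, and exact permutation tests ran on them. The 5 contrasts share samples. Of the probes, 14135 carried 1 symbol, 0 several and 3815 none, and 12089 were named by accession through a RefSeq table (GRCz12tu). Gene values were means of a gene's probes on each array, for 8809 genes. The members and 17 gene lists were chosen with earlier results of these data known. Named from each list were at most the 4 genes with the largest change at 5 dpf and any past the test, up to 6. Other genes given values (hmox1a, hmox1b, kdrl, cdh5) and those named for age were chosen after their values were seen. The fit was tested on simulated data. The samples come from separate plates.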

Additional observations from a re-analysis of the deposited data

How the results depend on the processing

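For the 5 hbae1.1 and hbbe2 probes, 0 results that passed the test reversed under up to 22 alternatives, which were another dye, sample or array model, another scaling, averaging of probes, the more variable of the probes (those with SD above the median), and leaving out each of the 12 samples. Of the results that left the test's side, hbae1.1 probe 3 at 5 dpf lost its call under scale normalization (0.76, adjusted p = 0.0527) and with the RNA sample as a random effect plus a dye effect (0.72, adjusted p = 0.0544), and ranged from 0.53 to 0.98 without single samples. Without single samples, hbae1.1 probe 2 at 5 dpf ranged from 0.28 to 0.38 (call lost without control replicate 1 of 5 dpf, adjusted p = 0.108), hbbe2 probe 2 from 0.57 to 0.79 (adjusted p = 0.054 without that sample), and the age change of hbae1.1 probe 2 in TBBPA eyes from -0.53 to -0.37 (adjusted p = 0.0598 without TBBPA replicate 1 of 5 dpf). Under scale normalization the age change of hbae1.1 probe 1 in controls was -1.10 (adjusted p = 0.0511), and the mean of the 3 hbae1.1 probes gave -1.56 where probe 2 alone gave -0.16. With each sample counted equally, the age changes were -2.59 for hbae1.1 probe 1 and -2.53 for probe 3 in TBBPA eyes and -1.54 for hbbe2 probe 1 in controls (exact permutation p = 0.1 each). Of all 11 globin probes, 7 rose at 5 dpf, and 2 to 7 without single samples. For the difference of effects 0 of 11 passed, 0 to 1 without single samples, 1 among the more variable probes, and 2 with the replicate block, where hbae1.1 probe 1 gave -0.88 (adjusted p = 0.04). Replicate numbers did not pair the samples throughout. Correlations of same-numbered deviations were -0.14, -0.11 and -0.04 at 5 dpf and 0.68, -0.46 and 0.09 at 8 dpf. The 0.68, of replicate 1, stood against at most -0.17 with other numbers. Replicate 1 of both 8 dpf groups also met on the same array. This value thus cannot separate pairing of plates from sharing an array. In their gene means, hbae1.1 and hbbe2 had the same order of replicates in both 8 dpf groups, with TBBPA above control at each number. The cause of the shifts between alternatives was not tested. A filter on dim probes was not possible.

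Over all probes, 1270 changed at 5 dpf, 250 at 8 dpf and 11 in the difference of effects, and 5792 and 7774 with age in control and TBBPA eyes. The counts ranged over the alternatives from 49 to 1793, from 8 to 594, from 0 to 160, from 1261 to 6914 and from 1765 to 8923 in the same order. The share of variance given to the RNA sample was 0 without a dye effect and 0.32 with it. At a share of 0, the alternative with the RNA sample as a random effect and no dye effect repeats the main fit. That alternative could therefore not differ from it.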
